A study of Mus musculus with 32 samples.

Results

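The male and female kidney were compared 3 days after cisplatin at every gene on the 19 autosomes, which leaves out the X and Y chromosomes and the mitochondrial genome. The count table holds 54532 genes, 50225 of them autosomal, and 16119 of those had enough reads in the 8 Day 3 libraries to be tested. The compared mice were wild-type C57BL/6, an inbred strain, 6 to 8 weeks old: 4 males and 4 females, each given a single dose of 20 mg/kg cisplatin and taken at Day 3, with 1 mouse per kidney RNA library. Cisplatin, a platinum drug that crosslinks DNA, is taken up by the tubules of the kidney and injures them. The same comparison in other mice of the series, not yet dosed (Day 0) or taken at Day 2 after the dose, is set beside the Day 3 values where this bears on them. The Day 0 mice were described as healthy, though the labels of Day 0 females name cisplatin. No male or female without cisplatin was taken at Day 3, so what sex and the drug each contribute cannot be told apart at Day 3 alone.

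The rodent kidney is one of the most sexually dimorphic organs outside the reproductive tract. Much of the difference lies in the proximal tubule, the segment that reabsorbs most of the filtrate and secretes drugs and organic anions, and androgens acting through the androgen receptor maintain many of the male-higher genes there. The genes involved are largely membrane transporters (the Slc and Slco families), enzymes that oxidise steroids, fatty acids and drugs (cytochromes P450) and enzymes that couple such compounds to glucuronic acid or glutathione (the Ugt and Gst families).

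The sex of all 8 libraries matched their labels. Libraries of males held 18822537 to 20946652 counted reads and those of females 27146123 to 33729363, so the sexes did not overlap in depth, and 291 genes were called, against 306 on all reads, when counts were thinned to the smallest library. Mitochondrial genes took 11.3 to 12.6% of reads in males against 9.24 to 10.5% in females. Several libraries held genes of neighbouring or distant tissues. Expression below is given as CPM, a gene's reads scaled to the normalised size of the library, in the order of mouse 1 to mouse 4. The 14 genes of an adrenal cortex list summed to 2488 and 3082 CPM in female mice 3 and 4, to 137 and 65.98 in females 1 and 2, and to 111, 26.9, 23.8 and 23.5 in males. An adrenal medulla list of 10 genes summed to 279 and 325 CPM in females 3 and 4, against 63.6 to 153.7 in the other mice. Female mouse 1 held more of 8 ovary and oviduct genes (54.7 CPM, against 5.995 to 8.53 in the other females and 3.04 to 4.07 in males). Female mouse 2 held more of 10 hepatocyte genes (520.2 CPM, against 78.6 to 134.7 in the other 7 mice) and of 7 erythroid genes (167 CPM, against 24.7 to 43.96), and stood below the other females in the p53 genes described further on. Male mouse 3 held the most of 10 skeletal muscle genes (26.8 CPM, against 3.22 to 11.5 in the other 7 mice).

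**Figure D1:**
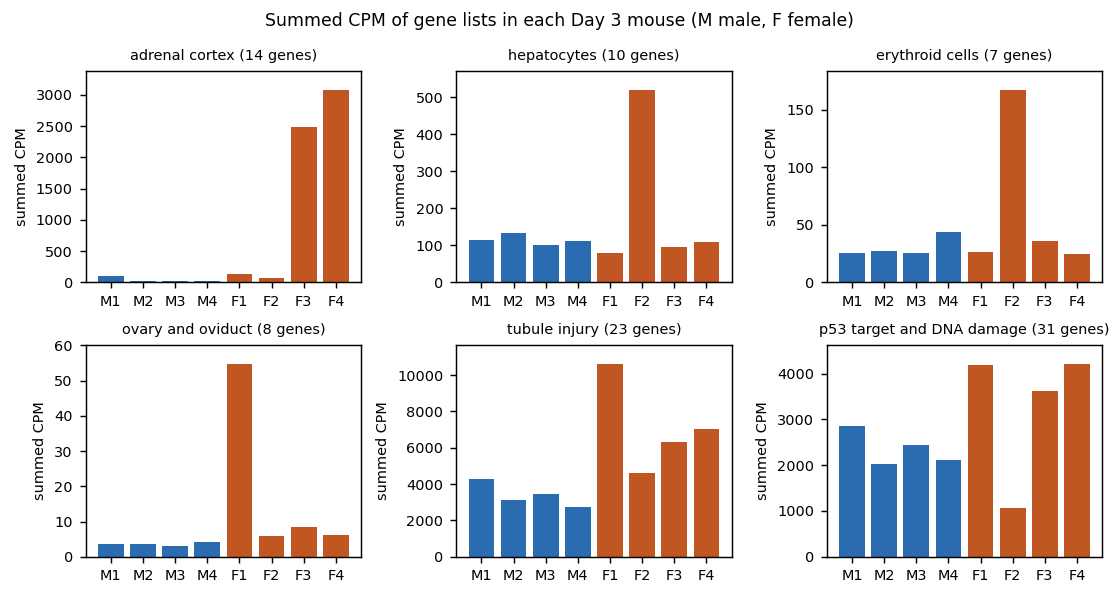
Summed CPM (vertical axes, from 0) of 6 gene lists in each Day 3 mouse, with males M1 to M4 in blue and females F1 to F4 in orange; each bar is 1 mouse. Adrenal cortex genes stood at 2488 and 3082 CPM in females 3 and 4, hepatocyte and erythroid genes were highest in female 2, ovary and oviduct genes in female 1, and the p53 sum of female 2 (1059 CPM) lay below those of the other 7 mice.

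A gene was called where its adjusted p was under 0.05 and its absolute log2 fold change, male minus female, was over 1.5, so that positive values mean higher in males. By that rule 306 genes were called, 1.9% of those tested, with 139 higher in males (0.862%) and 167 higher in females (1.04%). Dropping the fold requirement gave 1694 genes higher in males (10.5%) and 1708 higher in females (10.6%), and in 4118 genes (25.5%) the CPM of the 4 males and the 4 females did not overlap. Of the called genes, 137 of 139 and 143 of 167 had groups that did not overlap. When each mouse was left out in turn, 97 of the 139 (69.8%) were called in all 8 fits, against 71 of the 167 (42.5%). Of the 8 mice, leaving out female 2 changed the number of calls most, to 504, with 238 higher in males and 266 higher in females. That fit also kept the most original calls of the 8 in each direction, 132 and 142. With 1 mouse left out, the fewest male-higher calls were kept without female 3 (114). The fewest female-higher calls were kept without male 2 (101). Without female mice 3 and 4, an alternative chosen after seeing the data that leaves 4 males and 2 females, 184 genes were called (87 and 97), among them 70 and 82 of the original calls. The larger share passed to males without male 2 (127 and 123), male 3 (134 and 126), male 4 (147 and 136) or female 3 (134 and 132). In 1 fit over all 8 groups of the series 105 genes were called, 61 higher in males and 44 higher in females, and many calls named below missed the adjusted p there (0.059 to 0.616). They were Cyp4a12a, Acsm2, Kap, Pzp, Serpina1a, Serpina1d, Slco1a4 and Nat8f5 among the male-higher genes, and Ugt1a2, Ugt2b34, Cyp4f14, Cyp17a1, Cyp2d10, Serpina6, Akr1c20, Akr1cl, Apoa1, Fabp1, Havcr1, Krt20, Fgb, Alb, Ahsg, Mat1a, Nr5a1, Lep and Retn among the female-higher ones. In bulk tissue, fewer cells of a type and less RNA per cell cannot be told apart for any gene below.

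The 2 highest fold changes among the male-higher calls were those of transporter genes. Slco1a1, on chromosome 6, encodes an organic anion transporting polypeptide that takes up bile acids and steroid conjugates. It was read at 167, 292, 235 and 255 CPM in males and 0, 0.206, 0.0296 and 0.0744 CPM in females, and a log2 fold change of 11.46 (SE 0.43, adjusted p = 3.72e-06) was fitted. Every male was far above the highest female, and the 0 of female 1 is a library without a single read. Slc7a13, a transporter of acidic amino acids and cystine in the late proximal tubule, stood at 148, 549.8, 291 and 586 CPM in males and 0.326, 1.12, 0.178 and 0.2604 CPM in females, a log2 fold change of 9.66 (SE 0.76, adjusted p = 0.000343). The groups were again far apart, with female 2 the highest female and male 1 the lowest male. A pair of organic anion transporter genes of chromosome 19 was also higher in males. Slc22a30 was at 90.4, 193, 140.4 and 183 CPM in males and 2.48, 6.17, 4.92 and 3.42 CPM in females, 35.5-fold higher in males (adjusted p = 0.000209). Slc22a28 was at 42.5, 129, 80.98 and 143 CPM in males and 1.76, 10.9, 2.903 and 1.86 CPM in females, 22.3-fold higher in males (adjusted p = 0.00591). Female 2 was the highest female for both, and without females 3 and 4 the call of Slc22a28 was lost at 3.95 (adjusted p = 0.0605).

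Slc22a30 and Slc22a28 lie in a run of 4 called Slc22a genes, between positions 7781041 and 8405111 of chromosome 19, and the direction changed within it. Slc22a26 was also higher in males, at 14.2, 35.9, 21.3 and 41 CPM in males and 1.96, 8.199, 4.44 and 1.79 CPM in females, a log2 fold change of 2.76 (SE 0.56, adjusted p = 0.0138). Without females 3 and 4 it no longer passed, at 2.46 (adjusted p = 0.101). Slc22a29, between them, went the other way, at 5.41, 6.13, 7.26 and 8.59 CPM in males and 24.2, 45.4, 31.9 and 32.2 CPM in females, a log2 fold change of -2.29 (SE 0.21, adjusted p = 0.000334), with every female above every male. These neighbours are close paralogs and reads may have been shared among them, which makes each single value uncertain. In the whole Slc22a family 4 of 23 tested genes were called higher in males and 1 higher in females, and without females 3 and 4 this was 1 each way. Slc22a6, the main uptake carrier for organic anions in the tubule, passed the adjusted p but not the fold requirement at 986, 1070.4, 945 and 966 CPM in males and 339, 382, 356 and 385 CPM in females, a log2 fold change of 1.44 (SE 0.08, adjusted p = 8.16e-06). Its groups were tight and did not overlap. Of 8 Slco genes tested 3 were called, all higher in males, and of 12 Slc7a genes 1 was called in each direction.

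The 250 bases before the RefSeq transcription start are printed for genes whose groups were far apart, for genes whose neighbours went opposite ways, and for Kap, the most abundant call per length, so that their letters can be compared. Sequences are from RefSeq on GRCm38.p6 and run in the direction of transcription. Capitals mark matches, on either strand, to 5 motifs: AGAACA (core bound by the androgen and glucocorticoid receptors), TTCNNNGAA (STAT5), GTTAAT (HNF1), AGGTCA (core bound by many nuclear receptors) and TATAAA (the TATA box). None of these motifs overlapped another in the windows shown. In the promoter of Slco1a1, AGGTCA begins 134 and 24 bases before the start and TATAAA 209 and 99 bases before it. The Slc22a30 window holds none of the 5 motifs and that of Slc22a29 holds GTTAAT 29 bases before the start. An alignment of the Slc22a pair matched 178 of 275 columns (64.7%).
Slco1a1 promoter, chr6:141946963-141947212, minus strand: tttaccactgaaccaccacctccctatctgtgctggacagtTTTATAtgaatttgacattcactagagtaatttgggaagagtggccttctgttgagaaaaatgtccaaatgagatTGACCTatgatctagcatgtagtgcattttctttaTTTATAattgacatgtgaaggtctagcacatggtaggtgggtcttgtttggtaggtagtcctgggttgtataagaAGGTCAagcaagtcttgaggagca
Slc22a30 promoter, chr19:8405106-8405355, minus strand: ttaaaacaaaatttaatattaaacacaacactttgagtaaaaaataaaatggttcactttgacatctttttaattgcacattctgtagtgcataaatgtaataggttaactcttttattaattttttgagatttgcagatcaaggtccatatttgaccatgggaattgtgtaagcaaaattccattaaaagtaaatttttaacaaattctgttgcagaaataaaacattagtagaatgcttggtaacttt
Slc22a29 promoter, chr19:8218901-8219150, minus strand: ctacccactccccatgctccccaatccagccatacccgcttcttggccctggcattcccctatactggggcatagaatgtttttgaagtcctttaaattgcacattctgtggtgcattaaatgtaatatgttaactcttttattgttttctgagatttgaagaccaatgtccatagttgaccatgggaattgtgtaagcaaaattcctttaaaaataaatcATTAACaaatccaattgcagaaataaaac

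**Figure D2:**
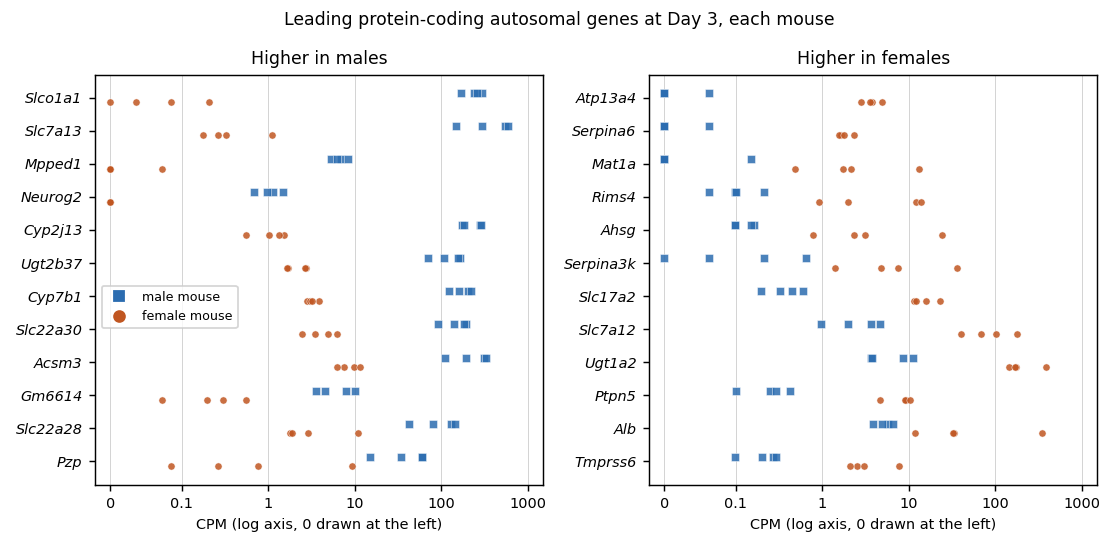
CPM on a log axis (0 drawn at the left edge) of the 12 protein-coding genes with the highest and the 12 with the lowest log2 fold change among calls whose groups do not overlap; blue squares are the 4 males and orange circles the 4 females. Slco1a1 sits at 167 to 292 CPM in males and at 0 to 0.206 in females, and Alb, Ahsg and Mat1a show a single female, mouse 2, to the right of the other 3.

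Cytochrome P450 genes moved in both directions. Of 55 tested, 5 were called higher in males and 3 higher in females, and without the fold requirement 8 and 9 passed. Higher in females, 6 were called and 12 passed without female 1, and 2 passed without females 3 and 4. Over both directions DESeq2 called 13 and voom 10. Cyp7b1, the oxysterol hydroxylase that inactivates hydroxylated cholesterol and also acts on androgens, was at 124, 204, 161 and 222 CPM in males and 2.81, 3.03, 3.85 and 3.199 CPM in females. The spread within each sex was small beside the gap, and a log2 fold change of 5.78 (SE 0.22, adjusted p = 2.68e-06) was fitted. Cyp2j13 was at 172, 278, 185 and 286 CPM in males and 1.01, 0.558, 1.51 and 1.34 CPM in females, a log2 fold change of 7.70 (SE 0.34, adjusted p = 8.16e-06). Its groups did not overlap, and its call and that of Cyp7b1 were kept whichever mouse was left out. Cyp2e1, which oxidises ethanol and small solvents, was abundant in both sexes, at 1418, 1526, 1305 and 1266 CPM in males and 191, 207, 336 and 325 CPM in females, 5.21-fold higher in males (adjusted p = 0.000131). Cyp4b1, of the fatty acid hydroxylase group, was at 1355, 2292, 1957 and 2453 CPM in males and 312, 213, 394 and 470.5 CPM in females, 5.8-fold higher in males (adjusted p = 0.000811). Cyp4a12a, a fatty acid omega-hydroxylase, was at 38.03, 55.3, 25.4 and 46.7 CPM in males and 4.44, 1.12, 9.54 and 7.402 CPM in females, a log2 fold change of 2.88 (SE 0.56, adjusted p = 0.0119). Female 2 was the lowest female for Cyp4a12a and Cyp4b1, and Cyp4a12a missed the threshold in the single fit over all 8 groups of the series (adjusted p = 0.0816). The 3 female-higher calls were Cyp4f14, Cyp17a1 and Cyp2d10, with log2 fold changes of -1.71, -1.73 and -2.81. Cyp17a1 is also on the adrenal cortex list, whose sum was highest in females 3 and 4. DESeq2 also called Cyp11b1 (adjusted p = 0.0283) and Cyp11a1 (0.0154) higher in females, both P450 genes of that list.

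Glucuronosyltransferases, which make steroids, bilirubin and drugs water-soluble, also split. Of 14 tested, 3 were called higher in males and 3 higher in females. Ugt2b37 was at 69.2, 162, 107 and 154 CPM in males and 2.74, 1.704, 2.64 and 1.64 CPM in females, a log2 fold change of 5.81 (SE 0.35, adjusted p = 8.00e-05). Ugt2b38 was at 385, 788, 531 and 858 CPM in males and 62.9, 53.4, 51.8 and 60.2 CPM in females, a log2 fold change of 3.49 (SE 0.25, adjusted p = 0.000119). Male 1 was the lowest male for both genes and still far above the highest female. Their neighbour Ugt2b34 went the other way, at 21.5, 17.9, 23.3 and 21.4 CPM in males and 85.6, 78.03, 85.3 and 107 CPM in females, a log2 fold change of -2.08 (SE 0.11, adjusted p = 7.88e-06), with narrow groups that did not overlap. The 3 lie within a run of 6 called genes between positions 86889767 and 87424203 of chromosome 5, of which 5 were higher in males. Ugt8a, on chromosome 3, which makes the galactosylceramide of cell membranes, was at 61.6, 111, 66.7 and 83.5 CPM in males and 9.46, 9.05, 13.6 and 9.08 CPM in females, 7.81-fold higher in males (adjusted p = 0.000152). Ugt1a2 was the leading female-higher member, at 11.1, 3.61, 8.58 and 3.77 CPM in males and 142, 384, 175 and 168 CPM in females, a log2 fold change of -5.01 (SE 0.53, adjusted p = 0.00124), with female 2 the highest by a wide margin and every female above every male. Ugt1a genes share their later exons, and the Ugt2b genes are close paralogs, so the split of reads among them is uncertain.

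The Ugt2b promoters are printed because the male-higher pair and its female-higher neighbour can be set against each other. Ugt2b37 and Ugt2b38 matched in 226 of 264 aligned columns (85.6%), and Ugt2b34 matched them in 53.2% and 50%. AGGTCA begins 39 bases before the start of Ugt2b37 and 25 before that of Ugt2b38, and Ugt2b34 holds AGAACA, on the opposite strand, 209 bases before its start. The promoter of Kap, described below, holds TATAAA 31 bases before the start.
Ugt2b37 promoter, chr5:87254789-87255038, minus strand: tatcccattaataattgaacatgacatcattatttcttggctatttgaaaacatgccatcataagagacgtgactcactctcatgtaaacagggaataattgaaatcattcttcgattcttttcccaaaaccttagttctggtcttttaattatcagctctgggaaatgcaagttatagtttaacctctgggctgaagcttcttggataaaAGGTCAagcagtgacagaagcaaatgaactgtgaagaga
Ugt2b38 promoter, chr5:87424204-87424453, minus strand: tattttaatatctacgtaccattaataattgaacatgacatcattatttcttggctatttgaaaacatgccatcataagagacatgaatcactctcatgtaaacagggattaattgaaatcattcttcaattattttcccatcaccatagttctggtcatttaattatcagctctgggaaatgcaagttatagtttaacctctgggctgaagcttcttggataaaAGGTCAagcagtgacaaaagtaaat
Ugt2b34 promoter, chr5:86906938-86907187, minus strand: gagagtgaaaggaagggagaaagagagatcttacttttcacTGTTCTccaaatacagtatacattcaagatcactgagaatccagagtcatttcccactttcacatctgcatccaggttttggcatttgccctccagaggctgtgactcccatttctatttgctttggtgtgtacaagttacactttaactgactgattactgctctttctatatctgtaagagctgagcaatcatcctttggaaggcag
Kap promoter, chr6:133853668-133853917, minus strand: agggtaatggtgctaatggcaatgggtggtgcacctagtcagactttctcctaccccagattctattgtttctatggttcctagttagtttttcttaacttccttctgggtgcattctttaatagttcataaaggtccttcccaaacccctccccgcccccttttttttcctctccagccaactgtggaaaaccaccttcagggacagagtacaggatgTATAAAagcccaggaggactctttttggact
Promoters were found for 10404 of the 16119 tested genes, 66 of the 139 male-higher and 92 of the 167 female-higher calls. GTTAAT was in 4.33% of all these windows, in 18.2% of those of male-higher calls (12 of 66) and in 15.2% of those of female-higher calls (14 of 92). TATAAA was in 6.58% of all windows, 19.7% of male-higher and 10.9% of female-higher ones. AGGTCA was in 11%, 18.2% and 21.7%, AGAACA in 10.4%, 13.6% and 15.2%, and TTCNNNGAA in 5.99%, 6.06% and 9.78%. These shares are descriptions of letters in a short window, and no test was made of them.

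Flavin monooxygenase, carboxylesterase and acyl-CoA synthetase calls were all higher in males, and glutathione transferase calls all higher in females. Fmo5, a flavin monooxygenase, was at 100.4, 114, 106 and 116 CPM in males and 18.8, 20.6, 26.1 and 24.7 CPM in females, a log2 fold change of 2.27 (SE 0.11, adjusted p = 3.72e-06). Ces1f, a carboxylesterase that cleaves ester drugs and lipids, was at 464, 773, 632 and 767 CPM in males and 85.6, 92.9, 97.1 and 97.6 CPM in females, a log2 fold change of 2.82 (SE 0.16, adjusted p = 8.16e-06). Neither gene overlapped between the sexes. Ces1g, in the same run of chromosome 8, was lower and more variable at 8.303, 17.6, 23.8 and 37.4 CPM in males and 0.587, 3.23, 1.24 and 1.93 CPM in females, 12.4-fold higher in males (adjusted p = 0.00698), and missed the threshold without females 3 and 4 (adjusted p = 0.0752). Of 11 Ces genes 3 were called, all higher in males. Acsm3, an acyl-CoA synthetase for medium-chain fatty acids, was at 110.2, 308, 191 and 330.3 CPM in males and 7.44, 6.201, 9.72 and 11.5 CPM in females, a log2 fold change of 4.76 (SE 0.41, adjusted p = 0.0005), with male 1 the lowest male and every male above every female. Its neighbour Acsm2 was at 1776, 3471, 2519.7 and 3471 CPM in males and 426, 1330.2, 546 and 469.8 CPM in females, 4.05-fold higher in males (adjusted p = 0.0134). Female 2 stood far above the other females for Acsm2 without reaching the lowest male, and without females 3 and 4 the adjusted p was 0.115. All 9 Gst genes that passed the adjusted p were higher in females, 2 of them called. Only 1 was called when male 2, 3 or 4 or female 1, 3 or 4 was left out, and 5 passed without females 3 and 4. Gsta4, which detoxifies lipid peroxidation aldehydes, was at 26.6, 20.03, 23.99 and 22.2 CPM in males and 113, 129, 135 and 155 CPM in females, 5.74-fold higher in females (adjusted p = 3.72e-06). It lies in a run of 5 called genes of chromosome 9, all higher in females. None of the 6 Sult genes tested, which add sulphate, was called by edgeR, and none had an unadjusted p under 0.05, while 0 were called by DESeq2 and 0 by voom, with 1 and 5 past the adjusted p.

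Kap, the kidney androgen-regulated protein gene, was the most abundant call per length, with mean deposited FPKM of 16019 in males and 3798 in females. Its CPM were 10480, 18140, 13948 and 17135 CPM in males and 1589, 6961, 2739 and 3017 CPM in females, a log2 fold change of 2.06 (SE 0.44, adjusted p = 0.0143). Female 2, at 6961, was well above the other females and below the lowest male, and the call was lost without females 3 and 4 (adjusted p = 0.134), with no filter on low counts (0.0555) and in the single fit over all groups (0.123). Steroid-converting Akr1c genes of chromosome 13 went both ways. Akr1c21, a hydroxysteroid dehydrogenase, was at 633, 1174, 976 and 1277 CPM in males and 154, 624, 229.9 and 228 CPM in females, a log2 fold change of 1.72 (SE 0.46, adjusted p = 0.0359). The groups touched but did not overlap (female 2 at 624, male 1 at 633), and the call was lost when any of males 2 to 4 or females 1, 3 or 4 was left out, with adjusted p of 0.062 to 0.0868. Akr1c20 was at 0.375, 0.148, 0.196 and 0.553 CPM in males and 1.04, 4.08, 2.19 and 1.75 CPM in females, 7.099-fold higher in females (adjusted p = 0.00647). Hsd17b14, which oxidises estradiol and other hydroxysteroids, was at 5.52, 5.14, 6.62 and 6.38 CPM in males and 25.96, 46.6, 30.6 and 27.97 CPM in females, 5.54-fold higher in females (adjusted p = 0.000121), with no overlap between the sexes.

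On a list of 26 genes described as androgen-responsive or male-higher in the kidney, 22 passed the adjusted p in the male direction and 16 were called, and the list's median log2 fold change was 2.63 against -0.02 over all tested genes. A list of 19 female-higher kidney genes had a median of -2.29, with 11 called higher in females and 1, Slc22a26, called the other way. Both lists were written with earlier results of these data known, so their direction is no independent evidence.

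**Figure D3:**
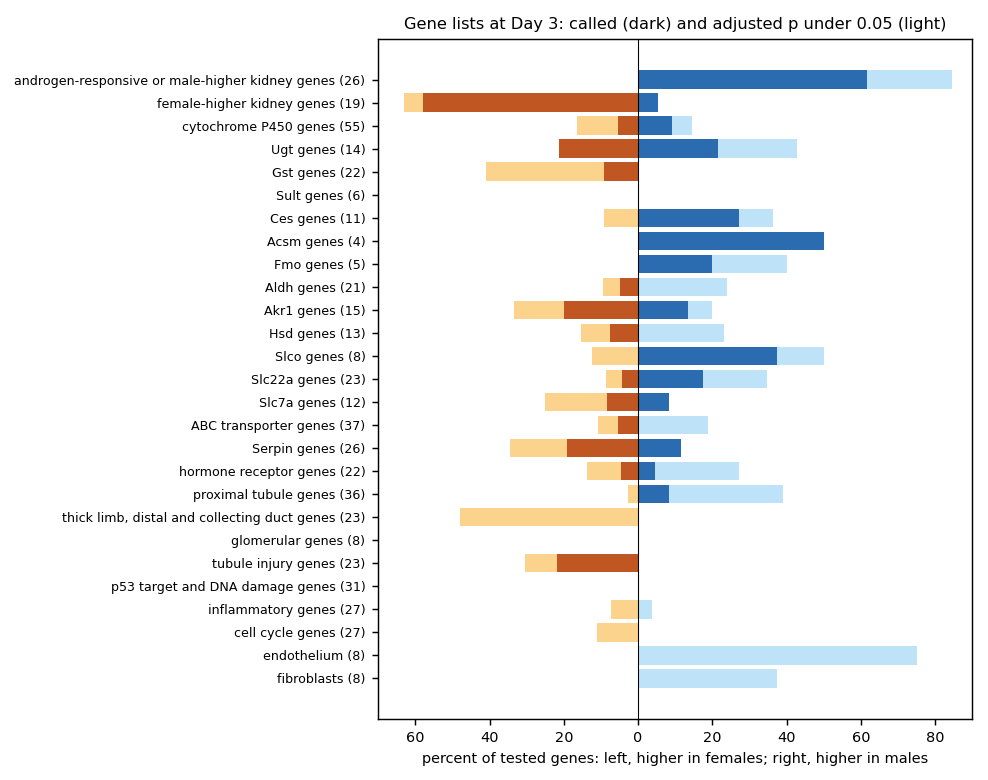
Percent of each list's tested genes (number in brackets) called at Day 3 (dark) or passing the adjusted p alone (light), with genes higher in males to the right in blue and genes higher in females to the left in orange. Called genes lie on both sides for the P450, Ugt, Slc22a, Slc7a, Akr1 and Serpin families, while the p53 list has no bar on either side.

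Members of the Serpin family were called in both directions. Serpina1d, an alpha-1 antitrypsin, was at 157, 133, 128 and 113 CPM in males and 16.5, 27.4, 13.4 and 12.1 CPM in females, a log2 fold change of 2.93 (SE 0.26, adjusted p = 0.000445), with all males above all females. Serpina6, corticosteroid-binding globulin, was nearly absent from males, at 0, 0, 0.0491 and 0 CPM in males and 1.63, 2.35, 1.57 and 1.79 CPM in females. Only 1 read was counted over the 4 males, and the female to male ratio was 146 with a 95% counting interval of 25.9 to 5789. Of 26 Serpin genes 3 were called higher in males and 5 in females (3 without male 3 and 2 without females 3 and 4), and 7 of these lie in 1 run of chromosome 12 between positions 103614786 and 104394257. Pzp, the protease inhibitor pregnancy zone protein, was at 15, 58.9, 34.5 and 59.2 CPM in males and 0.261, 9.37, 0.7702 and 0.0744 CPM in females, a log2 fold change of 3.96 (SE 1.13, adjusted p = 0.0447). Female 2 was far above the other females, and the call was kept only when female 2 was left out, at 6.73 (adjusted p = 0.0031). Leaving out any other mouse gave adjusted p of 0.0573 to 0.112. Timd2, a surface receptor of the TIM family, was at 25.1, 40.2, 31 and 41.1 CPM in males and 5.41, 4.41, 3.08 and 2.57 CPM in females, a log2 fold change of 3.15 (SE 0.26, adjusted p = 0.000209).

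Some calls were close to on and off. Mpped1, a metallophosphoesterase gene of chromosome 15, was at 5.303, 6.82, 6.23 and 8.24 CPM in males and 0, 0, 0.0592 and 0 CPM in females. Over the 4 females 2 reads were counted, which gives a male to female ratio of 418 with a 95% counting interval of 115 to 3459. Neurog2, a transcription factor gene known from neural progenitors, was at 1.12, 1.48, 0.687 and 0.955 CPM in males and 0, 0, 0 and 0 CPM in females. It was read in every male and in no female, at least 44.3-fold higher in males when the floor of 3 counts over the group is set for females. In the other direction, Atp13a4, a P-type ATPase gene, was at 0, 0.0494, 0 and 0 CPM in males and 2.81, 4.88, 3.76 and 3.53 CPM in females, with 1 read over the 4 males and a ratio of 299.5 (95% counting interval 53.5 to 11850). These intervals and the floor cover counting error only.

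Female-higher transporters included amino acid, phosphate and conjugate carriers. Slc7a12, an amino acid transporter, was at 0.964, 3.61, 1.96 and 4.62 CPM in males and 67.97, 175, 102 and 39.5 CPM in females, a log2 fold change of -5.10 (SE 0.63, adjusted p = 0.00213). Females spread from 39.5 to 175, yet the lowest female was far above the highest male. Slc17a2, of the sodium-phosphate cotransporter family, was at 0.321, 0.445, 0.196 and 0.603 CPM in males and 11.4, 22.6, 15.8 and 12.1 CPM in females, a log2 fold change of -5.29 (SE 0.34, adjusted p = 2.91e-05). Abcc3, an export pump for glucuronides and bile salts, was at 7.23, 4.85, 5.98 and 5.17 CPM in males and 97.2, 115, 103 and 72.2 CPM in females, a log2 fold change of -4.06 (SE 0.18, adjusted p = 3.72e-06). All 3 calls were kept whichever mouse was left out and without females 3 and 4. Of 37 ABC transporter genes 2 were called, both higher in females (1 without male 2, 3 or 4 or without females 3 and 4, and 3 without female 2). The adjusted p was passed by 7 and 4 in the male and the female direction. Over all tested genes 10.5% and 10.6% passed in those directions, so the 4 of 37 stood near that share. The 7 became 11 without female 2 and 3 without females 3 and 4. Ptpn5, a tyrosine phosphatase gene, was at 0.429, 0.247, 0.294 and 0.1005 CPM in males and 9.26, 4.61, 8.98 and 10.3 CPM in females, 30.6-fold higher in females (adjusted p = 7.90e-05), with female 2 the lowest female.

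Receptors of sex-related hormones were called once in each direction. Prlr, the prolactin receptor, was at 10.02, 12.3, 13 and 13.3 CPM in males and 37.2, 154, 45.4 and 47.7 CPM in females, a log2 fold change of -2.55 (SE 0.49, adjusted p = 0.0115). The groups did not overlap and female 2 stood well above the other females, and without it the log2 fold change was -1.83 (adjusted p = 5.18e-06). Esr1, the estrogen receptor alpha, was at 12.6, 22.6, 14.03 and 24.1 CPM in males and 5.32, 6.61, 5.303 and 3.35 CPM in females, a log2 fold change of 1.83 (SE 0.27, adjusted p = 0.00275), so the receptor mRNA was higher in males, with no overlap. Among 22 hormone receptor genes 6 passed the adjusted p higher in males and 3 higher in females, the 6 becoming 2 without male 2 or 4 and 3 without male 3 or female 3. One of the latter, Ppard, a fatty acid-sensing nuclear receptor, was at 20.8, 21.5, 18.9 and 19.6 CPM in males and 30.2, 39.9, 32.4 and 30.3 CPM in females, a log2 fold change of -0.71 (SE 0.10, adjusted p = 0.00183).

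Tubule injury genes that passed the test were higher in females, unevenly between mice. Of 23 tubule injury genes 7 passed the adjusted p, all higher in females, and 5 were called: Krt20, Havcr1, Fgb, Cdh6 and Spp1. Only 2 were called without male 2, 3 or 4 and 3 without female 1, the 7 that passed became 2 without male 2 or 3 and 4 without male 4 or female 3, and in the single fit over all 8 groups Krt20, Havcr1 and Fgb missed the adjusted p. Summed over the list, males held 4270, 3106, 3428 and 2724 CPM and females 10599, 4609, 6343 and 7018, so every female was above every male. Female 2 and male 1 were nearest, and their gap was smaller than that of a single member, Igfbp7, at 1847 and 1171 CPM in those mice. Havcr1 encodes kidney injury molecule 1, shed by damaged proximal tubule cells, and was at 4.29, 3.46, 3.38 and 1.86 CPM in males and 95.9, 5.05, 33.9 and 22.2 CPM in females, a log2 fold change of -3.60 (SE 0.86, adjusted p = 0.0248). Female 1 led and female 2 was barely above the males, and the call was lost when any male was left out (adjusted p of 0.0571 to 0.0766). Krt20, a keratin of injured tubule, was at 10.6, 1.48, 2.85 and 0.703 CPM in males and 119.7, 6.32, 48.5 and 61.8 CPM in females, a log2 fold change of -3.93 (SE 1.06, adjusted p = 0.0376). The groups overlapped between male 1 and female 2, and the call was kept only without male 1 or without female 2. Spp1, osteopontin, was at 1521, 892, 1079 and 607 CPM in males and 6362, 1492, 3069.7 and 3485 CPM in females, a log2 fold change of -1.81 (SE 0.46, adjusted p = 0.0281), with male 1 above female 2. Its call was lost without male 2, 3 or 4, or without female 1, when the log2 fold change was -1.38. Cdh6, a cadherin of the developing and injured tubule, differed from these in its evenness, at 5.41, 5.54, 6.33 and 5.58 CPM in males and 22.3, 23.5, 24.5 and 18.9 CPM in females, 3.902-fold higher in females (adjusted p = 7.57e-06). Cdh6 was also higher in females at Day 0, at -2.27 (adjusted p = 0.023), and at Day 2, at -2.29 (adjusted p = 0.00581).

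Lcn2, which encodes the injury marker NGAL, did not pass, at 109, 28.2, 38.7 and 9.29 CPM in males and 250, 13.7, 79.6 and 100.1 CPM in females, a log2 fold change of -1.26 (SE 0.96, adjusted p = 0.384). The range within each sex covered much of the other, with female 2 below 3 of the males. Cxcl1, a neutrophil chemoattractant, was at 8.41, 7.07, 9.42 and 2.61 CPM in males and 15.7, 0.911, 6.67 and 11.7 CPM in females, with an adjusted p of 0.768. None of 27 inflammatory genes was called by edgeR, although Tlr4 passed the adjusted p higher in males (0.0107) and Nfkbia (0.0388) and Csf1 (0.0419) higher in females. Of the 27, 2 and 3 had an unadjusted p under 0.05 in the male and the female direction, and DESeq2 called 0 and voom 2, with 3 and 8 past the adjusted p. None of the list passed higher in females by edgeR when male 2, 3 or 4 or female 1, 3 or 4 was left out.

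Among p53 target and DNA damage genes, female mouse 2 stood apart from the other females. None of the 31 was called or passed the adjusted p by edgeR, with 2 at an unadjusted p under 0.05 higher in males and 4 higher in females, and DESeq2 called 0 and voom 1. By those tools 3 and 13 of the 31 passed the adjusted p. Female 2 was the lowest female in 29 of the 31 and the lowest of all 8 mice in 27, whereas females 1, 3 and 4 were above every male in 22. Female 2 was set apart after its values were seen, and shares over all tested genes are not given here. Of 247 tested Slc genes outside the Slc22a and Slc7a families, female 2 was the lowest female in 65 and the lowest mouse in 34. Females 1, 3 and 4 were above every male in 54 of those. Cdkn1a, the p21 inhibitor of the cell cycle, was at 186, 70.02, 117 and 70.9 CPM in males and 456, 28.9, 379.5 and 419.8 CPM in females, a log2 fold change of -1.53 (SE 0.75, adjusted p = 0.18). Without female 2 the log2 fold change was -1.91 (adjusted p = 0.0121), and with voom's sample weights the adjusted p was 0.029. Ccng1, cyclin G1, was at 812, 652, 761 and 751 CPM in males and 1023, 202, 945 and 1010.2 CPM in females, a log2 fold change of -0.10 (SE 0.44, adjusted p = 0.894). Again female 2 was far below the other 7 mice. Leaving out female 2 put 22 of the 31 genes past the adjusted p higher in females and 1 higher in males, with 2 called, both higher in females. The rise was not limited to this list, as 504 autosomal genes were called in that fit in place of 306. Proximal tubule genes past the adjusted p higher in males went from 14 to 26. The share of all tested genes past the adjusted p in that fit is not given here. Leaving out the same mouse raised the injury genes past the adjusted p from 7 to 18, and 1 inflammatory gene was then called higher in males and 4 higher in females. Female 2 also had the hepatocyte and erythroid genes given above, and their part in these values was not tested.

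**Figure D4:**
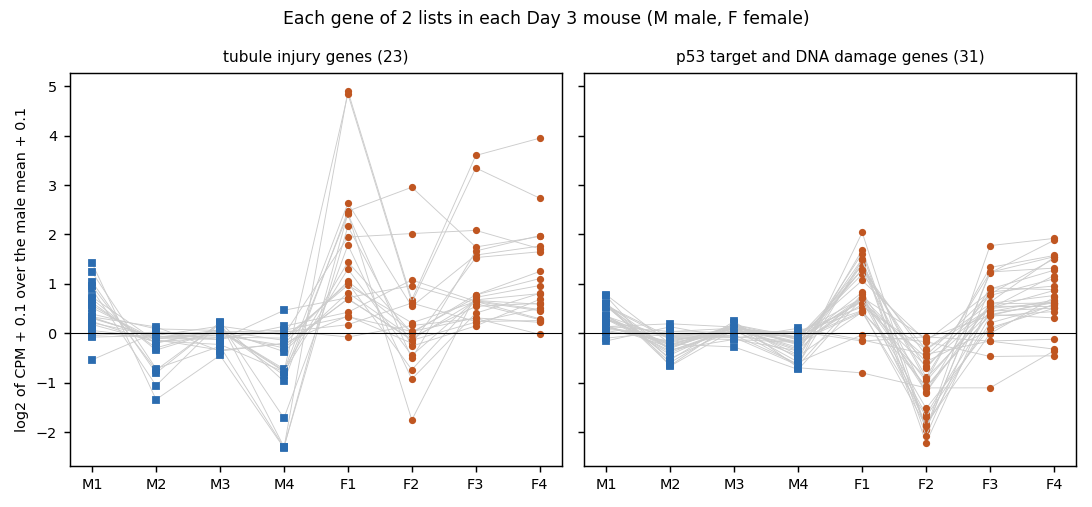
For each gene of the tubule injury list (left) and the p53 target and DNA damage list (right), log2 of its CPM plus 0.1 over the male mean plus 0.1 in each Day 3 mouse; points joined by a grey line are 1 gene, blue squares males and orange circles females. In the right panel females 1, 3 and 4 lie mostly above 0 and female 2 below it, the lowest of the 8 mice in 27 of 31 genes.

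Proximal tubule genes that passed were mostly higher in males and those of later segments higher in females. Of 36 proximal tubule genes 14 passed the adjusted p higher in males and 1 higher in females, with 3 called and a median log2 fold change of 0.37. The 14 became 9 without male 2, 26 without female 2 and 5 without females 3 and 4. Summed CPM of the list were 30753, 34208, 32884 and 34142 in males and 17446, 26297, 18079 and 21634 in females. Female 2 was the highest female in 27 of the 36 genes, and females 1, 3 and 4 were below every male in 24. This split of the females was likewise made after seeing the data. Of 247 tested Slc genes outside the Slc22a and Slc7a families, the same counts were 115 and 50. Of 23 thick limb, distal and collecting duct genes 11 passed the adjusted p, all higher in females, and the median was -0.48. On all mice none was called by edgeR, DESeq2 or voom, and 16 had an unadjusted p under 0.05 in the female direction. By edgeR 1 was called higher in females without male 4, female 3 or female 4, and without females 3 and 4. Without male 2 the 11 became 6, and without male 3 they became 7. In males their summed CPM lay between 3989 and 5694 and in females between 5079.9 and 9524, so the sexes overlapped. Of 8 endothelial genes 6 passed the adjusted p, all higher in males, with none called by edgeR, DESeq2 or voom. Only 2 of the 8 passed when male 2, 3 or 4 or female 1, 3 or 4 was left out. No glomerular gene of 8 passed by edgeR on all mice, 3 did without male 3 and 1 each by DESeq2 and voom, while 4 reached an unadjusted p under 0.05, all higher in females, and none was called by DESeq2 or voom.

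Genes of other tissues supplied several of the female-higher calls. Of 11 adrenal cortex genes tested 3 were called, all higher in females: Nr5a1, Cyp17a1 and Mrap. The 3 became 1 without male 2, 3 or 4, and also 1 without females 3 and 4. They became 5 without male 1, 6 without female 2 and 7 without female 1. Cyp11b1, which makes corticosterone in the adrenal cortex, was at 13.9, 0.0494, 0.0491 and 0.0502 CPM in males and 0.7502, 3.85, 357 and 422 CPM in females, a log2 fold change of -5.83 (SE 2.36, adjusted p = 0.124), so it was not called although females 3 and 4 were far above the other mice. Nr5a1, the steroidogenic factor 1 of adrenal and gonad, was called at 0.589, 0.0494, 0 and 0.0502 CPM in males and 7.08, 0.441, 34.04 and 41.8 CPM in females, a log2 fold change of -6.94 (SE 1.65, adjusted p = 0.024). It was high in females 1, 3 and 4, and without females 3 and 4 its log2 fold change was -4.46 (adjusted p = 0.11). Akr1cl, of the aldo-keto reductase family and not a gene of the list, was at 2.304, 0.0989, 0 and 0 CPM in males and 44.3, 2.17, 38.5 and 51.6 CPM in females, a log2 fold change of -5.88 (SE 1.31, adjusted p = 0.0194). The same 3 females were high, and without females 3 and 4 its log2 fold change was -5.32 (adjusted p = 0.105). The calls of Nr5a1 and Akr1cl were also lost when male 2, 3 or 4 was left out (adjusted p of 0.0624 to 0.0784). DESeq2 called 10 of the 11 adrenal genes, among them Cyp11b1 (adjusted p = 0.0283), and voom called 2. Of 10 adipocyte genes 6 passed the adjusted p, all higher in females, and the hormone genes Lep (log2 fold change of -2.46, adjusted p = 0.00584) and Retn (-1.91, adjusted p = 0.00834) were called. With 1 mouse left out 4 to 7 of the list passed higher in females and 2 or 3 were called. The summed CPM of the adipocyte list overlapped, at 965, 1272, 1047 and 1353 in males and 972, 1554, 1545 and 1167 in females. Of 4 skeletal muscle genes tested Myh1 was called higher in females (-3.36, adjusted p = 0.0267), while the median over the 4 was 0.82, and of 4 ovary and oviduct genes Amh (-3.26, adjusted p = 0.0349). The muscle call was lost without male 2, male 4 or female 3 and the ovary and oviduct call without any of the males. Of the 167 female-higher calls, 11 were more than 2-fold higher in both females 3 and 4 than in both other females.

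Female 2 was the highest female in 7 of the 8 hepatocyte genes tested. Alb, Ahsg, Apoa1 and Fabp1 were called higher in females, 4 of the 8, and Serpina1a, an alpha-1 antitrypsin gene, was called higher in males, at 33.1, 24.7, 20.5 and 21.2 CPM in males and 4.83, 11.3, 4.98 and 6.66 CPM in females, a log2 fold change of 1.84 (SE 0.29, adjusted p = 0.00461). Without male 2 or 3 only 1 gene of the list was called higher in females, and without male 4 or without females 3 and 4 only 2. Alb, serum albumin, was at 3.86, 5.74, 4.91 and 6.48 CPM in males and 11.7, 348, 32.97 and 32.5 CPM in females, a log2 fold change of -4.34 (SE 1.21, adjusted p = 0.0443). Ahsg, a plasma glycoprotein gene of the liver, was at 0.161, 0.0989, 0.0981 and 0.151 CPM in males and 0.783, 24.04, 3.08 and 2.34 CPM in females, a log2 fold change of -5.86 (SE 1.45, adjusted p = 0.0275). Mat1a, the liver form of methionine adenosyltransferase and not a gene of the list, was at 0, 0, 0 and 0.151 CPM in males and 0.489, 12.99, 2.13 and 1.71 CPM in females, with 3 reads over the males and a female to male ratio of 121 (95% counting interval 41.2 to 589). For each of the 3 the other females were also above every male, by less. Their calls were lost when any male was left out, with adjusted p of 0.0636 to 0.121, and without female 2 the log2 fold changes were -2.28 (adjusted p = 0.0067) for Alb, -3.98 (adjusted p = 0.000603) for Ahsg and -5.07 (adjusted p = 0.00238) for Mat1a. Fabp1, a fatty acid binding protein of liver and tubule, was even across females at 0.375, 0.346, 1.03 and 0.502 CPM in males and 6.002, 5.73, 7.55 and 6.62 CPM in females, 11.3-fold higher in females (adjusted p = 0.000126). Female 2 was more than 2-fold above each other female in 20 of the 167 female-higher calls and more than 2-fold below each in 29. The highest and lowest female were within 2-fold in 65 of the 167, and the highest and lowest male within 2-fold in 93 of the 139 male-higher calls.

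The kinds of gene called differed between the directions. Protein-coding genes made up 73 of the male-higher and 147 of the female-higher calls, and other kinds 66 and 20. Of 287 tested TEC genes (transcript models awaiting experimental test) 19 were called, all higher in males, with a median log2 fold change of 0.41 over the 287. Antisense genes gave 14 male-higher and 7 female-higher calls of 483, and lincRNA genes 12 and 8 of 480. Unprocessed pseudogenes, which are copies of genes, gave 7 calls of 48, all higher in males. These kinds were low in reads, with a median CPM of 0.798 for TEC, 1.03 for antisense and 1.19 for lincRNA genes. It was 1.46 for unprocessed pseudogenes and 23.1 for protein-coding genes. Males had the shallower libraries, and with at least 10 counts in every library 163 genes were called in place of 306. The kinds among those 163 are not given here. Whether reads were counted by strand is not given in the sources used here, so reads of an antisense gene and of its partner cannot be told apart. Called genes also lay in runs: 14 runs of at least 3 calls within 500 kb of the next held 57 of the 306, and 8 runs went in 1 direction. A run of chromosome 6 at 141805440 to 142111525 held Slco1a4, Slco1a1, Gm6614 and Gm18159, all higher in males, and another at 85774393 to 85832082 held Nat8, Nat8f5, Nat8f6 and Alms1-ps2, all higher in males. Nat8 itself, an acetyltransferase of the proximal tubule, was at 241, 216, 204 and 182 CPM in males and 42.4, 37.6, 60.02 and 71.4 CPM in females, 3.996-fold higher in males (adjusted p = 0.000581). It is named here for its run after its values were seen.

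Different mice of the series were compared in the same way at other times. At Day 2, 125 genes were called (0.778% of 16064), 76 higher in males and 49 higher in females, and with 1 mouse left out the number ran from 72 (without female 3) to 246 (without male 4). At Day 0, 57 were called (0.367% of 15514), 27 and 30, and this number was 0 when male 1, female 2 or female 3 of Day 0 was left out, and at most 68. In the single fit over all 8 groups the calls numbered 105 at Day 3, 83 at Day 2 and 310 at Day 0, so the order of the days depends on the fit. Of the 306 Day 3 calls 269 were tested at Day 2, and 253 of them had the same direction: 125 of 125 male-higher and 128 of 144 female-higher genes. Called on both days in the same direction were 93, which is 30.4% of the Day 3 calls and 74.4% of the Day 2 calls. For Day 0, 193 of 221 tested genes had the same direction, and 25 were called on both days (8.17% and 43.9%). None of the 306 passed the adjusted p in the opposite direction on either day. On all 3 days 22 genes were called in 1 direction, 11 each way.

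Slco1a1 stood at log2 fold changes of 12.03 at Day 2 (adjusted p = 1.25e-05) and 4.94 at Day 0 (adjusted p = 0.202). Cyp7b1 was at 6.16 (adjusted p = 9.43e-06) and 4.36 (adjusted p = 0.269) on those days, and Abcc3 at -4.41 (adjusted p = 0.00041) and -4.09 (adjusted p = 0.0485). All 3 kept their direction on each day, although the adjusted p at Day 0 was under 0.05 only for Abcc3. Havcr1 had the opposite sign at both other days, 1.96 (adjusted p = 0.482) at Day 2 and 1.003 (adjusted p = 0.919) at Day 0, and Alb the opposite sign at Day 2, 1.26 (adjusted p = 0.514), none of which passed. Pzp was at 8.37 (adjusted p = 0.000739) at Day 2 and at 0.28 (adjusted p = 0.978) at Day 0.

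**Figure D5:**
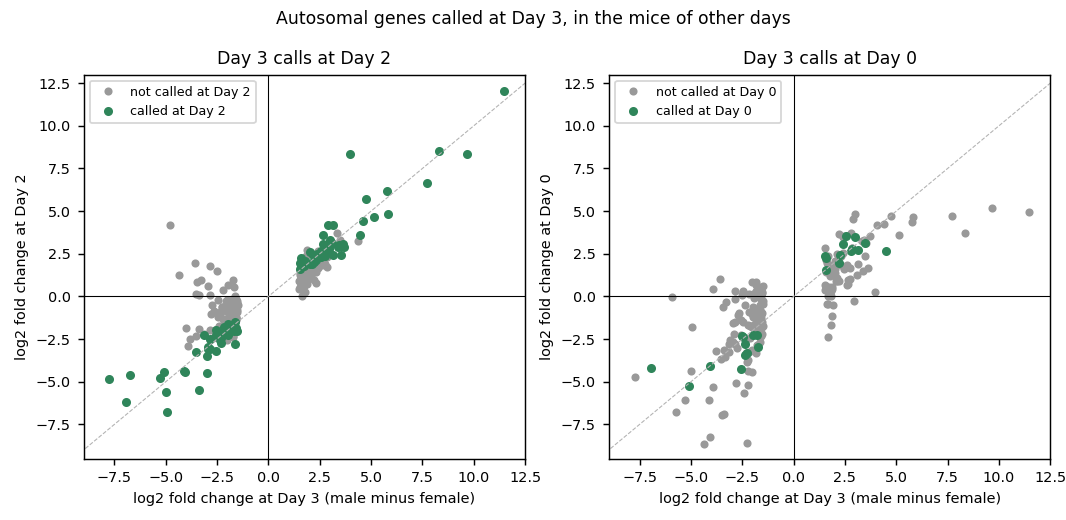
Log2 fold change (male minus female) of the genes called at Day 3 against that at Day 2 (left) and Day 0 (right), for genes tested on both days; green points were also called on the other day, grey ones were not, and the dashed line marks equal values. All 125 male-higher genes tested at Day 2 lie above 0 there, and 16 of 144 female-higher genes have the opposite sign.

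Whether the sex difference itself changed was tested as an interaction of sex and day. Between Day 3 and Day 0 it passed for 2 of 17017 genes (0.0118%), with 1203 at an unadjusted p under 0.05, 79 called by DESeq2 and 2041 by voom. Ppard was higher in females at Day 3 and its log2 fold change was 1.02 (adjusted p = 0.071) at Day 0, a change of -1.73 (SE 0.22, adjusted p = 0.0123) that passed in 12 of 16 fits that each left out 1 mouse. Kynu, kynureninase of tryptophan breakdown, was at 21.3, 21.2, 22.96 and 24.4 CPM in males and 18.7, 44.6, 27.3 and 29.98 CPM in females at Day 3, with a log2 fold change of -0.43 there and -3.36 (adjusted p = 0.0153) at Day 0. The change of 2.94 (SE 0.41, adjusted p = 0.0213) passed in 7 of 16 such fits. Without females 3 and 4 neither passed. Between Day 3 and Day 2 the interaction passed for 0 genes by edgeR (0% of 16942), with 767 at an unadjusted p under 0.05, 56 called by DESeq2 and 1 by voom.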

How the data were processed

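Kidney RNA of C57BL/6 mice was sequenced from paired-end libraries, 1 mouse each, 4 of each sex at each day. Raw reads counted per gene were deposited by the authors as whole counts (HTSeq, with DESeq2 for their tests, per the labels) and, for the same libraries, FPKM values, which divide the counts by gene length and library size; FPKM was used only for levels per length. The labels name GRCm39, while 53756 of 54409 shared genes start where GENCODE vM21 on GRCm38 puts them, so GRCm38 was used. The aligner and the strandedness are not given in the sources used here. Libraries at Day 3 held 18822537 to 33729363 counts, and samples were grouped by the sex and day of their labels.

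The test was edgeR 4.0.16 run under R 4.3.3 (TMM, filterByExpr, robust dispersions, quasi-likelihood test) on the 8 libraries of a day. Benjamini-Hochberg adjustment ran over all 16673 genes tested at Day 3, whatever their chromosome, and the 16119 autosomal ones were then counted. CPM are counts scaled by the TMM library size. A call needed both an adjusted p under 0.05 and a log2 fold change beyond 1.5 either way; the methods of the study give the same thresholds with no base for the logarithm, and base 2 was assumed. Interactions of sex and day were fitted on the 16 libraries of both days. No source used here links a male to the female of the same number, so the tests are unpaired, and p-values measure the spread between these mice. The scripts were tested on simulated data. Ratios against groups of 1 to 3 reads carry exact 95% counting intervals.

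The members, the gene lists and the tests were chosen with earlier results of these data known. Named were the 12 highest and 12 lowest fold changes among protein-coding calls whose groups do not overlap and whose higher group averages at least 1 CPM, the 8 calls with the largest difference of mean FPKM, up to 4 members of smallest p and any called member of each gene list, the interaction calls, 9 fixed genes and the adrenal cortex genes; of these, those that a result turns on are described. The alternatives were DESeq2 size factors, its Wald test (DESeq2 1.42.0), all genes with a read, at least 10 counts in every library, 1 fit over all 8 groups, a replicate block, limma 3.58.1 voom with sample quality weights, autosomal genes alone, thinning to the smallest library, a log2 fold change over 1, and each mouse left out. Leaving out female Day 3 mice 3 and 4 was chosen after seeing the data. Promoters are RefSeq windows on GRCm38.p6, searched with Python 3.11.15, and figures were drawn with matplotlib 3.10.9. Some genes are not reported here.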

Additional observations from a re-analysis of the deposited data

Results flagged for a closer look

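Among 134 groups of 4 mice tested for a single mouse far from the other 3 (60 genes and 7 gene list sums, in each sex), 26 stood out. Chance gives about 1 in 20 for independent groups of normally distributed values, which these are not. The genes were chosen with these data known, some sums hold genes also tested singly, and a group with 3 zeros stands out by construction. The 1 in 20 is therefore no fair measure for the 26. Female mouse 2 accounted for most of them. It was the highest female for Slc7a13 (1.12 CPM), Slc22a28 (10.9), Acsm2 (1330.2), Pzp (9.37), Ugt1a2 (384), Prlr (154), Tmprss6 (7.73), Alb (348), Ahsg (24.04), Mat1a (12.99) and Akr1c21 (624), and for the sums of the hepatocyte list (520.2) and the erythroid list (167). It was the lowest female for Ccng1 (202 CPM). Female mouse 3 was the highest female for Ugt8a (13.6 CPM) and was the only female with reads of Mpped1 (0.0592). Female mouse 1 stood apart for the ovary and oviduct sum (54.7 CPM).

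Male mouse 1 was the highest male for the adrenal genes Cyp11b1 (13.9 CPM), Cyp11a1 (7.18) and Nr5a1 (0.589), for Akr1cl (2.304) and for the adrenal cortex sum (111). The remaining values rest on a few reads or a few genes: Atp13a4 in male 2 (0.0494 CPM), Serpina6 in male 3 (0.0491), and in male 4 Mat1a (0.151) and the erythroid sum (43.96).

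For 2 genes the sex difference at Day 3 was not that at Day 0 by the interaction test, Ppard (-1.73 on the log2 scale) and Kynu (2.94).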

How the results depend on the processing

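At Day 3, the 306 calls became 163 with at least 10 counts in every library, 105 in 1 fit over all 8 groups, 487 with voom, 677 at a log2 fold change over 1 and 184 without females 3 and 4, and 250 to 504 with 1 mouse left out. The split of 139 higher in males and 167 in females became 61 and 44 in the single fit, and males also held the larger share with voom (252 and 235), at least 10 counts (82 and 81), a log2 fold change over 1 (347 and 330), and without male 2 (127 and 123), male 3 (134 and 126), male 4 (147 and 136) or female 3 (134 and 132). At Day 2, the 125 calls became 237 with the Wald test, 82 with at least 10 counts, 83 in 1 fit over all 8 groups and 342 with voom, and 72 to 246 with 1 mouse left out, the lowest without female 3 and the highest without male 4. At Day 0, the 57 calls became 190 with the Wald test, 310 in 1 fit over all 8 groups and 466 with voom, and 0 to 68 with 1 mouse left out. The 2 interaction calls of Day 3 against Day 0 became 79 with the Wald test, 2041 with voom, 0 without females 3 and 4 and 0 to 5 with 1 mouse left out. The 0 calls of Day 3 against Day 2 became 56 with the Wald test, 1 with no filter and 1 with voom, and 0 with any mouse left out. The causes were not tested.

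With the replicate block of mouse number the Day 3 calls numbered 302, those of Day 2 104 and those of Day 0 116, and the interaction with Day 0 gave 4. Cyp4a12a, Havcr1 and Alb missed the adjusted p at Day 3 with the block (0.0522, 0.0504 and 0.0683). No day had every same-numbered male and female deviating together with r over 0.1, so the numbers were not taken to pair the mice. At Day 3 the r were 0.205, 0.268, -0.146 and -0.341 over 14701 genes, and only number 2 correlated best with itself. At Day 2 they were -0.22, 0.076, 0.057 and -0.538, with no number best matched to itself, and at Day 0 0.324, -0.104, 0.533 and 0.535, with numbers 1, 3 and 4 best matched to themselves, a hint from the data and not from the design.

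Over 60 of the genes named, 954 of 1061 values under the alternatives kept their direction and their side of the threshold, 94 no longer passed, 6 newly passed and 7 changed sign, none of them from a called value. The most such changes came in 1 fit over all 8 groups (18), without females 3 and 4 (17) and with no filter (12). The sign changes were those of Ccng1 with the replicate block (0.12), without female 1, 3 or 4 (with 1 mouse left out it ranged from -0.41 to 0.052) and without females 3 and 4 (0.28), of Cxcl1 without female 1 (0.11, in a range from -0.71) and of Cyp11b1 without females 3 and 4 (0.58). Genes with few reads in 1 sex are limited by depth, which was lower in every male than in any female.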
